A study of Homo sapiens with 4 samples.

Results

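In mammospheres of MDA-MB-468 cells, 54 genes had RNA levels at least 1.5 times lower in both libraries of the gRNA2 cells than in both libraries of the CTL cells. They are 54 of 26475 gene symbols counted, and of 10949 genes that had at least 100 reads in CTL or CTL+dox and could have been chosen (eligible genes). MDA-MB-468 is an established line of basal-like triple-negative breast cancer, and mammospheres are floating spheres grown without attachment, a culture used to enrich for cells with stem cell properties. The study asked which transcripts change when TCOF1, which encodes the nucleolar protein treacle, is knocked out. RNA was sequenced in 4 conditions with 1 library each. CTL and CTL+dox are cells with a control vector, without and with doxycycline, and both are labelled wild type. The gRNA2 cells carry an inducible guide against TCOF1 and were grown without doxycycline (gRNA2, labelled wild type) or with it (gRNA2+dox, labelled as knockout of TCOF1). By the methods, cells of both kinds were infected with lentivirus for Cas9 and for the doxycycline-inducible guide vector, and were sorted for the fluorescence of both. Each library pooled mammospheres of several plates. A difference between CTL and gRNA2 cells is therefore a difference between a pair of sorted cell pools, and the guide and the history of each pool cannot be told apart. In such bulk RNA, fewer cells of a kind and less RNA per cell cannot be told apart either.

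The members were chosen from their read counts. Counts were scaled to reads per 1000000 reads on genes in the library (CPM), and a gene was taken where the smaller of its CTL and CTL+dox levels was at least 1.5 times the larger of its gRNA2 and gRNA2+dox levels. This choice used all 4 libraries, so the differences between the pools are given as a description and no test was made on them. The 54 genes are 0.493% of the eligible genes. With the direction turned, 5 genes were high in both gRNA2 libraries, 0.0457% of the eligible genes. Eligible genes were defined by their reads in CTL or CTL+dox, the libraries in which genes of the turned direction are low. A gene with enough reads in the gRNA2 libraries only could not be counted. The numbers of low and high genes therefore cannot be compared, and whether the pools differ more in the low direction was not tested. The last genes inside the limit were MAOA, FHL1 and SNCG, with ratios of 1.515, 1.51 and 1.504, and the first outside were SNHG8, NCALD and HAP1, with ratios of 1.492, 1.474 and 1.47.

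Total counts on genes were between 19960644 and 26322847 per library, so 3 counts correspond to 0.114 to 0.15 CPM. TCOF1, the targeted gene, was at 51.1 CPM in CTL against 33.6 in CTL+dox, and 50.1 in gRNA2 against 19.7 in gRNA2+dox. It was thus alike in both libraries without doxycycline and lowest in the library labelled knockout, and it is not a member. Markers of mammary epithelium summed to between 6194 and 6719 CPM and basal-like markers to between 15849 and 17187 CPM. Markers of white blood cells summed to between 158 and 180 CPM, mostly from CD68, CSF1R and CD14, while PTPRC and CD3E had at most 3 reads in any library. Fibroblast markers summed to between 17 and 21.1 CPM, mostly from COL1A1 with at most 3 reads of DCN, and endothelial markers to between 13.3 and 16.1 CPM, mostly from KDR with 0 reads of CDH5.

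The 54 genes include secreted factors, proteases, junction proteins and ion channels. Secreted growth factors and their antagonists (FGF, WNT and BMP proteins) act on neighbouring cells of the breast epithelium, proteases and matrix proteins shape the space around them, and junction proteins and ion channels hold the cells together and set what passes between them. ELF5 is a transcription factor of the ETS family that is known for its part in luminal progenitor cells and milk-producing alveoli of the mammary gland. Grouped by known role after the members were seen, 6 were secreted growth factors and their modulators, 9 were secreted proteases, protease inhibitors and matrix proteins, and 17 were membrane proteins, junctions and ion transport genes. A further 10 belonged to the cytoskeleton and intracellular signalling, 7 to metabolism and organelles and 5 to nuclear proteins and RNA.

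The guide that defines the pool is shown first, since every member is low in the cells that carry it. Its target, GRCh37 chr5:149754959-149754981 on the reverse strand, is in exon 11 of the canonical TCOF1 transcript, and is given with its protospacer-adjacent motif in capitals.
TCOF1 gRNA2: gggccggcgcctttccccaaGGG
The stretches of 250 bases before a RefSeq transcript start of 4 members, from GRCh38.p14, follow. They are the 4 genes with the largest ratio between the pools, and CG dinucleotides, the sites of DNA methylation in promoters, are in capitals. HEPH lies at chrX:66163997-66164246 and RNF128 at chrX:106693588-106693837, both on the forward strand, and ELF5 at chr11:34511725-34511974 and TMEM47 at chrX:34657286-34657535, both on the reverse strand. The stretches of RNF128 and TMEM47 end at the outer start of the gene, while those of HEPH and ELF5 belong to starts inside the annotated gene span. RefSeq gives HEPH and RNF128 further starts, and the span of ELF5 begins upstream of the start shown. Which start was used in these cells cannot be read from counts per gene.
HEPH: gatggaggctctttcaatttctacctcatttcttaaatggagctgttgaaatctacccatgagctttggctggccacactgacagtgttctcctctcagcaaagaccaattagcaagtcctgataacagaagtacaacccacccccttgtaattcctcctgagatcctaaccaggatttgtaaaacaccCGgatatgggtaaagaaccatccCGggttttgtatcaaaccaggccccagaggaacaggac
RNF128: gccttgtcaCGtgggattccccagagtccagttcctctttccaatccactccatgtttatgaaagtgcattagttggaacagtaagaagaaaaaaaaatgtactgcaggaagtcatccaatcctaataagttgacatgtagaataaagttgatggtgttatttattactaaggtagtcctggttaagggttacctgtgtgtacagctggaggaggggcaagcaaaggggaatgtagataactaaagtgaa
ELF5: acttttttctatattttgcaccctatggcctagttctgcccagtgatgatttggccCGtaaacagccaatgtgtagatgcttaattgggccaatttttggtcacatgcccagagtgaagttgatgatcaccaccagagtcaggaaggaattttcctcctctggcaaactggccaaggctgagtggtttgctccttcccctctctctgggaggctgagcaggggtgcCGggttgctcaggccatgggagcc
TMEM47: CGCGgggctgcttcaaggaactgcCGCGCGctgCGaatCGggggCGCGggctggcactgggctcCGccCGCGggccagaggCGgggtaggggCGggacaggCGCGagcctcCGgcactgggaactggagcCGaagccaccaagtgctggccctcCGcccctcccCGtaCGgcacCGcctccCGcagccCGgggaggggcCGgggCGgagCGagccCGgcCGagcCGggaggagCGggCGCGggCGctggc
The stretch shown for HEPH held 2 CG dinucleotides, that of RNF128 held 1 and that of ELF5 held 2, whereas that of TMEM47 held 34. Promoter sequences were at hand for 43 of the 54 genes, 79.6%, which is under the 80% set for comparing a property over a list, so the members were not compared with other genes in this respect.

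HEPH, which encodes hephaestin, a membrane ferroxidase of iron export, differed most between the pools. It had 94 reads in CTL against 104 in CTL+dox, and 22 in gRNA2 against 7 in gRNA2+dox, which are 4.71, 4.63, 0.836 and 0.316 CPM. RNF128, a ubiquitin ligase of the endosomal membrane, was at 9.77 CPM in CTL against 10.7 in CTL+dox, and 2.89 in gRNA2 against 1.67 in gRNA2+dox. Both genes were alike in the CTL libraries and lower in gRNA2+dox than in gRNA2. ELF5 was at 7.56, 9.61, 2.24 and 1.76 CPM in the same order. TMEM47, a membrane protein of cell junctions, was at 11.7, 12.8, 4.06 and 1.76 CPM, and PRSS12, the secreted protease neurotrypsin, at 12.5, 14.1, 5.01 and 2.35 CPM. In each of these 5 genes gRNA2+dox was lowest on the CPM scale. That both gRNA2 libraries lay below both CTL libraries follows from the rule. The ratio on which they were chosen was 5.54 for HEPH, 3.38 for RNF128 and ELF5, 2.87 for TMEM47 and 2.5 for PRSS12, and it reached 2 in 16 of the 54 genes.

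**Figure D1:**
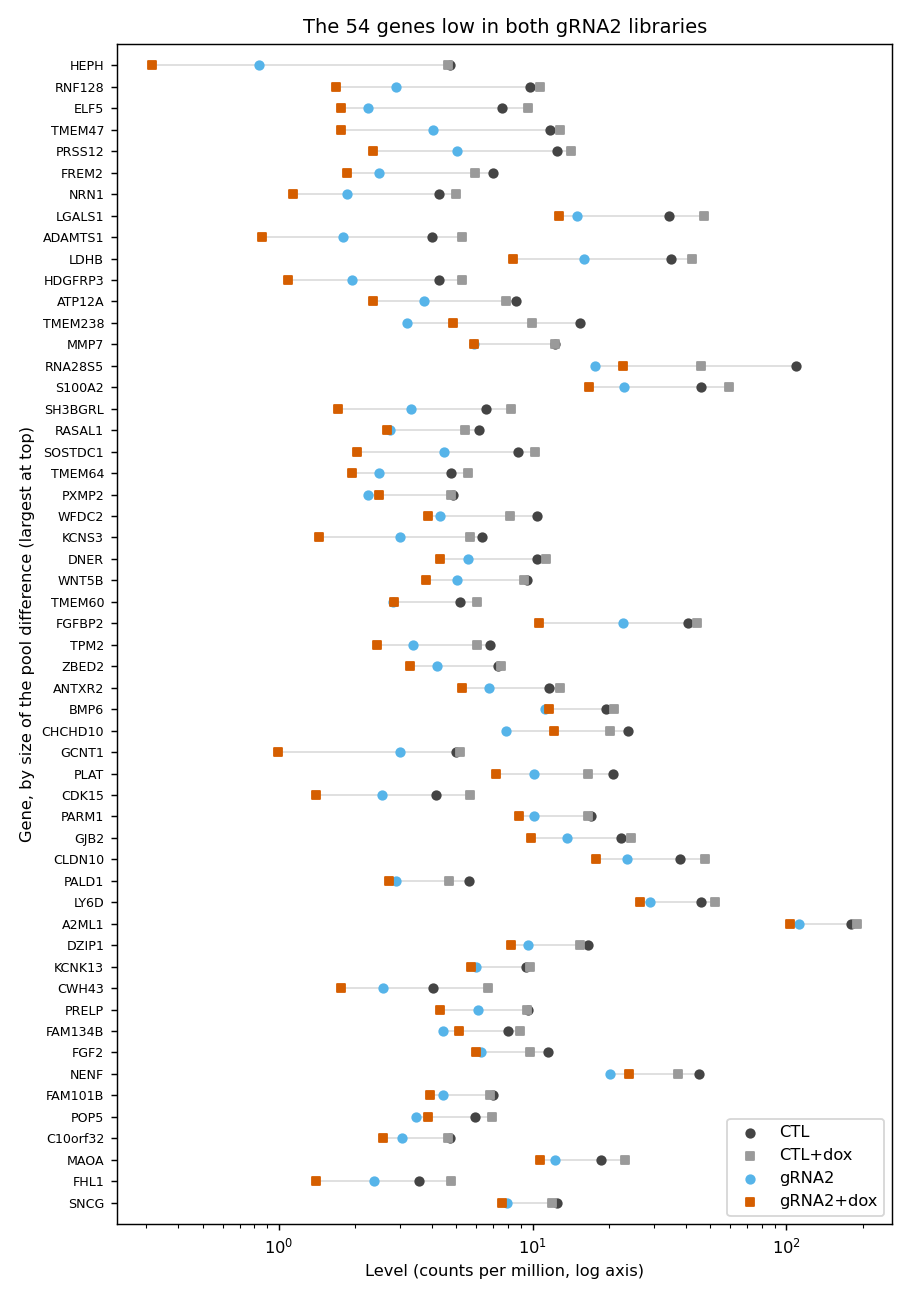
Level of each of the 54 genes in CPM (log axis), with 1 point for each library, the CTL cells in grey tones and the gRNA2 cells in blue (without doxycycline) and orange (with it), sorted by the ratio used for the choice. A gap between the grey and the coloured points is fixed by the choice, while the orange point lies left of the blue point in 45 genes and right of it in 9.

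Over the 54 genes, the median level was 9.57 CPM in CTL against 9.68 in CTL+dox, and 4.41 in gRNA2 against 3.88 in gRNA2+dox. The median log2 ratio of gRNA2 to CTL was -0.95 (range -2.63 to -0.59), and that of gRNA2+dox to CTL+dox was -1.27 (range -3.78 to -0.63). RNA28S5, a large-subunit ribosomal RNA, held more CTL reads than any member but A2ML1. It was at 109 CPM in CTL against 45.9 in CTL+dox, and 17.6 in gRNA2 against 22.7 in gRNA2+dox. It is encoded by many near-identical repeats, so its counts are uncertain. Without it, the members summed to 895 CPM in CTL against 957 in CTL+dox, and 477.3 in gRNA2 against 398.9 in gRNA2+dox.

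The pools were also compared after a choice by the ratio without doxycycline only. In a reading added after seeing the data, genes were instead chosen as at least 1.5 times lower in gRNA2 than in CTL, the libraries without doxycycline, and 108 genes were found (0.986% of the eligible genes), the 54 members among them. In the libraries with doxycycline, 62 of these 108 genes, 57.4%, were at least 1.5 times lower in gRNA2+dox than in CTL+dox, beside 2.47% of all eligible genes. All 54 members are among these 62 genes, because the rule required this difference of them. Lower by any amount were 100 of the 108, beside 53.8% of the eligible genes, and their median log2 ratio was -0.75. These 2 ratios share no library, but both compare the same 2 pools. CTL+dox also took part in the choice through the read minimum, which some of the 108 genes met only there. An example is FHL1, with 71 reads in CTL and 107 in CTL+dox. The reading is therefore not independent of the choice.

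The next question was whether doxycycline, which induces the guide, went with a further loss in the gRNA2 cells. The rule treats gRNA2 and gRNA2+dox alike and so does not fix which of them is lower, but it used both values, so what follows is also a description. Lower in gRNA2+dox than in gRNA2 by any amount were 45 of the 54 genes (83.3%), beside 55.4% of the eligible genes. The median log2 ratio of gRNA2+dox to gRNA2, computed with a prior count of 0.5, was -0.35 over the members and -0.02 over the eligible genes. At least 1.5 times lower in gRNA2+dox were 16 members, 29.6%, beside 0.767% of the eligible genes, and at least 1.5 times higher were 2, beside 0.448%. Few reads make such ratios unsteady, and 31 members had no more than 100 reads in gRNA2+dox. The eligible genes were not matched to the members in depth, so the shares past 1.5 times are not compared at like depth. By 95% intervals of each ratio (exact, after Clopper and Pearson), which cover counting error only, 24 members were lower with the whole interval below 0, beside 22.3% of the eligible genes, and 4 were higher with the whole interval above 0, beside 15.6%. The interval share depends on depth, and the eligible genes include many with far more reads than the members.

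GCNT1, an enzyme that branches the sugar chains of mucin-type glycoproteins, had the lowest ratio. Its level was 4.96 CPM in CTL against 5.16 in CTL+dox, and 3 in gRNA2 against 0.992 in gRNA2+dox, from 99, 116, 79 and 22 reads. The log2 ratio of gRNA2+dox to gRNA2 was -1.58 (interval -2.35 to -0.9), whereas doxycycline in the CTL cells gave 0.06. FGFBP2, a secreted protein of the FGF-binding family, rested on more reads, with 814, 994, 598 and 235. These are 40.8, 44.2, 22.7 and 10.6 CPM, and the log2 ratio within the gRNA2 cells was -1.1 (interval -1.32 to -0.88). SOSTDC1, a secreted antagonist of BMP and WNT signals, was at 8.77, 10.2, 4.48 and 2.03 CPM, with a log2 ratio of -1.13 (interval -1.67 to -0.64). For LDHB, the lactate dehydrogenase subunit that is abundant in oxidative tissues, the levels were 35, 42.6, 15.9 and 8.35 CPM and the log2 ratio was -0.93 (interval -1.19 to -0.68). In all 4 genes CTL+dox lay highest and gRNA2+dox lowest, with gRNA2 below both CTL libraries by the rule.

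At least 2 times lower within the gRNA2 cells were 8 members. Besides GCNT1, FGFBP2 and SOSTDC1 these were HEPH at a log2 ratio of -1.34 (interval -2.87 to -0.13, from 22 and 7 reads), TMEM47 at -1.2 (-1.78 to -0.67) and PRSS12 at -1.09 (-1.59 to -0.62), and a further pair of low expression. ADAMTS1, a secreted metalloproteinase, was at 4.01, 5.25, 1.79 and 0.857 CPM, with a log2 ratio of -1.04 (interval -1.91 to -0.26). KCNS3, a modulatory subunit of voltage-gated potassium channels, was at 6.31, 5.65, 3 and 1.44 CPM, with a log2 ratio of -1.04 (interval -1.7 to -0.45). The next members were lower by at least 1.5 times. SH3BGRL, a small protein with a thioredoxin-like fold, was at 6.56, 8.19, 3.31 and 1.71 CPM, with a log2 ratio of -0.94 (interval -1.54 to -0.38). NRN1, the lipid-anchored surface protein neuritin, was at 4.26, 4.98, 1.86 and 1.13 CPM, with a log2 ratio of -0.71 whose interval reached 0 (-1.48 to 0, from 49 and 25 reads). ATP12A, a proton and potassium pump of epithelia, was at 8.57, 7.83, 3.72 and 2.35 CPM, with a log2 ratio of -0.66 (interval -1.18 to -0.17). Each of these genes was lowest in gRNA2+dox. The rest of the 16 were RNF128 at -0.78, HDGFRP3 at -0.83, CDK15 at -0.85, FHL1 at -0.74 and LDHB, given above. Of the genes with the largest ratio between the pools, ELF5 had -0.35 with an interval of -0.97 to 0.26 and FREM2, a basement membrane protein of epithelia, -0.41 with an interval of -1.02 to 0.17, so a further difference with doxycycline was not detectable for them at this depth.

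**Figure D2:**
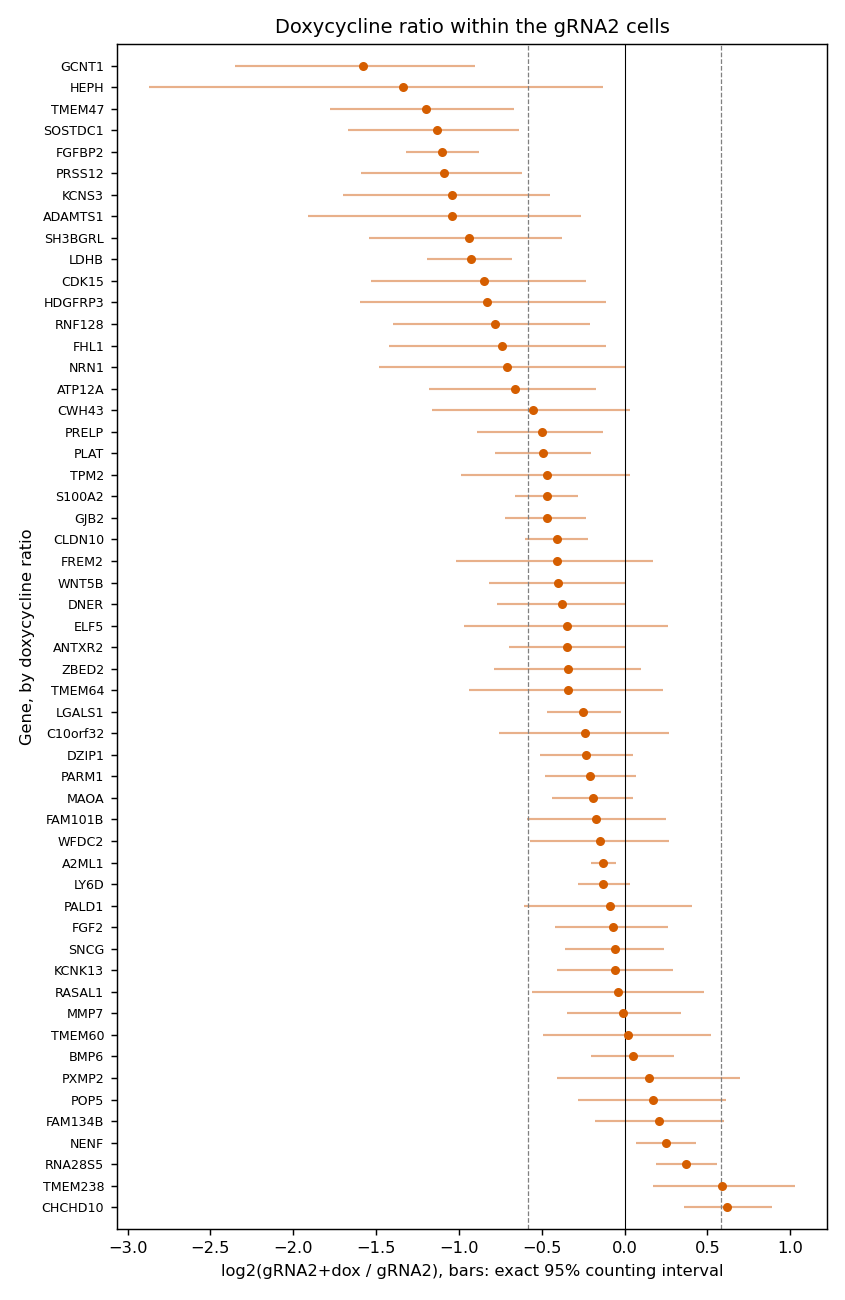
Log2 ratio of gRNA2+dox to gRNA2 for each of the 54 genes (points), with exact 95% counting intervals (bars) and dashed lines at a difference of 1.5 times. In 16 genes the point lies at or left of the left dashed line and in 2, TMEM238 and CHCHD10, at or right of the right one.

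Not all members followed this order. CHCHD10, a small protein of the mitochondrial intermembrane space, was at 23.8 CPM in CTL against 20.2 in CTL+dox, and 7.86 in gRNA2 against 12.1 in gRNA2+dox, a log2 ratio of 0.62 within the gRNA2 cells (interval 0.36 to 0.89). TMEM238, a small membrane protein, was at 15.4, 9.97, 3.19 and 4.83 CPM, with a ratio of 0.59 (interval 0.17 to 1.03). NENF, the secreted factor neudesin, was at 45.4, 37.3, 20.2 and 24 CPM, with a ratio of 0.25 (interval 0.07 to 0.43). These genes and RNA28S5, at 0.37 (interval 0.19 to 0.56), had higher levels with doxycycline in the gRNA2 cells and lower levels with it in the CTL cells. FAM134B, a receptor for the turnover of the endoplasmic reticulum, was at 7.97, 8.9, 4.41 and 5.1 CPM, with a ratio of 0.21 with an interval of -0.18 to 0.6. MMP7, the metalloproteinase matrilysin, showed almost the same level with and without doxycycline in each pool, 12.2 CPM in both CTL libraries, 5.89 in gRNA2 and 5.86 in gRNA2+dox.

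Doxycycline in cells without the TCOF1 guide was read in the CTL cells. TCOF1 itself was lower with doxycycline there, at 51.1 CPM in CTL against 33.6 in CTL+dox. Its log2 ratio was -0.6 (interval -0.74 to -0.47), and the part of this in the members' CTL ratios was not tested. Between CTL+dox and CTL the members had a median log2 ratio of 0.09, beside -0.01 over the eligible genes. Here 31 of the 54 were higher with doxycycline, beside 47.3% of the eligible genes, 2 were at least 1.5 times lower, beside 0.511%, and 1 was at least 1.5 times higher, beside 0.237%. The 2 lower genes were RNA28S5 and TMEM238, and the higher gene was CWH43, a membrane protein of lipid remodelling, at 4.06 CPM in CTL and 6.68 in CTL+dox. In the gRNA2 cells more members were thus lower than higher with doxycycline. In the CTL cells the split was nearer to even, with 31 higher and 23 lower. By counting intervals 10 members (18.5%) were higher in CTL+dox, beside 15.8% of the eligible genes, and 6 (11.1%) were lower, beside 22.4%. Some members met the minimum of 100 reads in CTL+dox only, such as CWH43 (81 reads in CTL and 150 in CTL+dox) and GCNT1 (99 and 116). For such genes the choice favoured a higher level in CTL+dox. The part of this in the CTL ratios, and in the differences that follow, was not tested. The difference of the log2 ratios, gRNA2 cells minus CTL cells, had a median of -0.43 over the members and 0 over the eligible genes. It was negative in 43 members, beside 49.6% of the eligible genes, and corresponded to at least 1.5 times in 21 members, beside 1.47%. For GCNT1 it was -1.63 (counting SE 0.4), for LDHB -1.21 (0.15), for FGFBP2 -1.22 (0.13) and for TMEM47 -1.33 (0.3), where the SE covers counting error only.

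**Figure D3:**
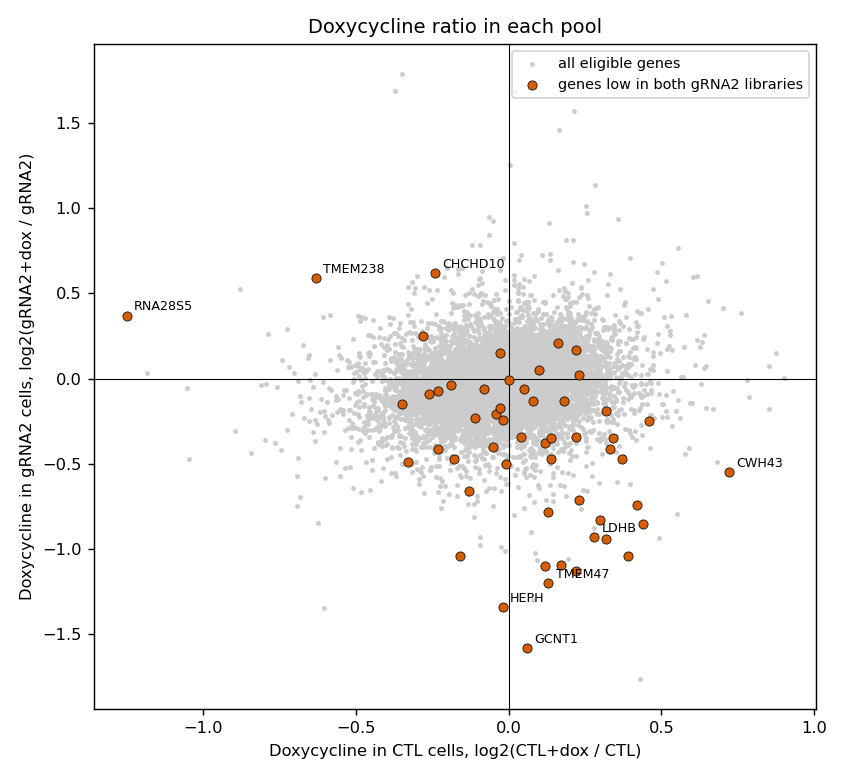
Log2 ratio with doxycycline in the CTL cells (horizontal axis) and in the gRNA2 cells (vertical axis) for all eligible genes (grey) and the 54 members (orange). Most members lie below the horizontal line at 0, with a median of -0.35 on the vertical axis and 0.09 on the horizontal axis.

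By role, the secreted proteases, protease inhibitors and matrix proteins had lower levels with doxycycline in the gRNA2 cells in 9 of 9 genes, beside 83.3% of all members and 55.4% of the eligible genes, with a median log2 ratio of -0.41. Of these, 2 were at least 1.5 times lower, and the count includes MMP7 at -0.01 and WFDC2 at -0.15, whose signs turned under another scaling (MMP7) or with thinning (WFDC2). Among them PLAT, tissue plasminogen activator, was at 20.7 CPM in CTL against 16.5 in CTL+dox, and 10.1 in gRNA2 against 7.17 in gRNA2+dox. A2ML1, a broad protease inhibitor of stratified epithelia, had the most reads of all members, at 179, 190, 112 and 103 CPM, and its ratio within the gRNA2 cells was only -0.13 (interval -0.2 to -0.05). The membrane, junction and ion transport genes were lower in 15 of 17, 6 of them by at least 1.5 times, with a median of -0.41. CLDN10, a claudin of ion-selective tight junctions, was at 38.1, 47.9, 23.5 and 17.7 CPM, and GJB2, the gap junction protein connexin 26, at 22.2, 24.4, 13.6 and 9.83 CPM. In both the gRNA2+dox level was below that of gRNA2, with log2 ratios of -0.41 (interval -0.6 to -0.22) and -0.47 (interval -0.72 to -0.23). LY6D, a surface protein anchored by a lipid, was at 46.2, 52.4, 28.9 and 26.5 CPM.

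Among the 6 growth factors and modulators, 4 were lower, with a median of -0.24. FGFBP2 and SOSTDC1 are described above, and the ligands WNT5B, FGF2 and BMP6 had ratios nearer to 0. WNT5B, a ligand of non-canonical WNT signalling, was at 9.52 CPM in CTL against 9.21 in CTL+dox, and 5.01 in gRNA2 against 3.79 in gRNA2+dox, FGF2 at 11.5, 9.79, 6.27 and 5.95 CPM, and BMP6 at 19.5, 20.9, 11.2 and 11.6 CPM. The intervals of the log2 ratio of gRNA2+dox to gRNA2 were -0.82 to 0 for WNT5B, -0.42 to 0.26 for FGF2 and -0.2 to 0.3 for BMP6. The genes of the cytoskeleton and intracellular signalling were lower in 10 of 10, again beside 83.3% of all members and 55.4% of the eligible genes, with a median of -0.35. Of these, 3 were at least 1.5 times lower, and RASAL1 at -0.04, SNCG at -0.06 and PALD1 at -0.09 had intervals that span 0. S100A2, a calcium-binding protein of basal epithelial cells, was at 46.1, 59.6, 22.9 and 16.6 CPM, a ratio of -0.47 (interval -0.66 to -0.28). LGALS1, which encodes the sugar-binding protein galectin-1, was counted above with the secreted proteases, protease inhibitors and matrix proteins. It was at 34.4, 47.1, 15 and 12.7 CPM, a ratio of -0.25 (interval -0.47 to -0.02). S100A2 and LGALS1 were both highest in CTL+dox and lowest in gRNA2+dox. The metabolism and organelle genes were lower in 4 of 7, with a median of -0.19, and the nuclear proteins and RNA in 3 of 5. Among the members whose levels are not printed, RASAL1, TMEM64, PXMP2, DNER, TMEM60, TPM2, ZBED2, ANTXR2, PARM1, PALD1, PRELP, FAM101B, POP5 and C10orf32 had log2 ratios within the gRNA2 cells from -0.5 (PRELP) to 0.17 (POP5).

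On 46 lists of pathways, families and cell types, few members were found, and no list held more than 2. The members were 2 of 14 eligible metalloproteinases and their inhibitors (MMP7 and ADAMTS1), 2 of 26 potassium, sodium and calcium channels (KCNS3 and KCNK13), and 1 each of 11 claudins, 15 S100 proteins, 22 WNT genes, 29 BMP and TGF-beta genes, 14 EGF and FGF ligands and receptors, 8 secreted defence proteins (WFDC2) and 10 steroid response and luminal genes (ELF5). WFDC2, a secreted protease inhibitor of epithelia, was at 10.4, 8.15, 4.29 and 3.88 CPM, and KCNK13, a potassium leak channel, at 9.42, 9.75, 5.96 and 5.73 CPM, so that in both the gRNA2 libraries lay close together. Between gRNA2 and CTL, the metalloproteinase list as a whole had a median log2 ratio of -0.03 and the claudins of -0.08, beside -0.02 over the eligible genes. The other lists, among them those of the interferon response, S phase, G2 and M phase, hypoxia and cholesterol synthesis, held 0 members. Between gRNA2+dox and gRNA2 the median log2 ratio was -0.34 for the G2 and M phase genes, close to that of the members. It was -0.15 for the S phase genes and 0.41 for the interferon response. Between gRNA2 and CTL the medians of these lists were -0.15 for G2 and M phase, -0.12 for S phase and -0.01 for the interferon response. The part of these genes in the members' levels was not tested. KIT, FZD8 and NOS2, genes that the study took further, had fewer than 100 reads in both CTL libraries and could not be members. KIT was at 1.35 CPM in CTL against 1.38 in CTL+dox, and 0.76 in gRNA2 against 0.135 in gRNA2+dox, and FZD8 at 3.21, 2.18, 1.41 and 0.722 CPM, at ratios of 1.78 and 1.55. Both were lowest in gRNA2+dox and next lowest in gRNA2, but KIT rested on 27, 31, 20 and 3 reads and FZD8 on 64, 49, 37 and 16. NOS2 had a ratio of 1.47, from 10, 17, 9 and 0 reads.

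The members lay on many chromosomes. By RefSeq positions on GRCh38, which could be matched for 53 of them, 6 lay on chromosome X, 6 on chromosome 4, 6 on chromosome 12 and 5 on chromosome 13. These were 1.7% of the eligible genes of chromosome X, 1.59% of those of chromosome 4, 1.08% of chromosome 12 and 2.78% of chromosome 13, against 0.493% of all eligible genes. Chromosome X held 3.24% of the eligible genes and 11.3% of the members. Its members HEPH, RNF128, TMEM47, SH3BGRL, MAOA and FHL1 included 5 of the 16 genes that were at least 1.5 times lower with doxycycline in the gRNA2 cells, with a median log2 ratio of -0.86. On chromosome 4 these were 2 of 6 members (median -0.45), on chromosome 12 they were 1 of 6 (median -0.08) and on chromosome 13 they were 1 of 5 (median -0.41). The other genes of these chromosomes had medians near 0. Their median log2 ratio of gRNA2 to CTL cells, averaged over the libraries without and with doxycycline, was -0.032 on chromosome X, -0.043 on chromosome 4, -0.026 on chromosome 12 and -0.054 on chromosome 13, within the range of -0.067 to 0.017 over all chromosomes. No stretch of 10 neighbouring eligible genes held 3 members. CLDN10 (chromosome 13, 95433755 to 95579759) and DZIP1 (95578202 to 95644706) were the only neighbouring members, and their 3′ ends overlap. The libraries do not mark strand, so reads in an overlap cannot be given to either gene, which touches 10 members that overlap another protein-coding gene, FGF2 (with NUDT6), BMP6, GCNT1, CHCHD10 and SNCG among them.

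**Figure D4:**
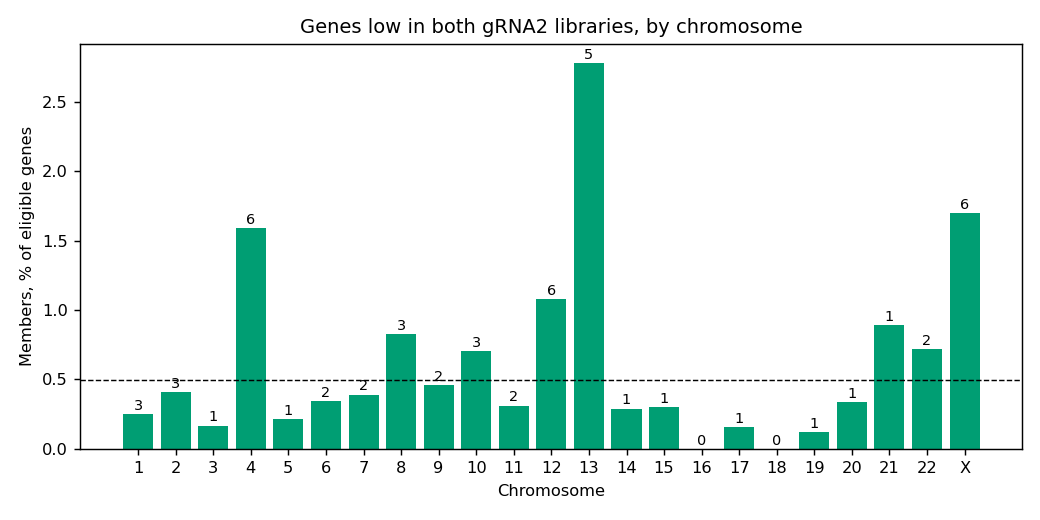
Members as a percentage of the eligible genes of each chromosome (bars, with the number of members above each), with a dashed line at 0.493%, the share over all eligible genes. Chromosome 13 has the highest bar, at 2.78% from 5 genes, followed by X at 1.7% and 4 at 1.59%.

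In what the rule did not use, the members had a shorter median transcript than other eligible genes and alike GC content, which was not tested. The median length of the canonical transcript was 2444 bases in the members (53 with a value) and 3378 bases in the other eligible genes, with quartiles of 1190 to 4431 and 2068 to 5271 bases. Median GC content was 48.6% in the members and 48.4% in the others. Within the members, composition went with the doxycycline ratio. The 16 genes at least 1.5 times lower in gRNA2+dox than in gRNA2 had a median GC content of 44.7%, and those lower by less had 49.1%. The 8 genes with a value among the 9 that were higher had 56.4% and a median length of 943 bases. Across 53 members GC content went with the log2 ratio of gRNA2+dox to gRNA2 (r = 0.49 by Pearson, rho = 0.39 by Spearman) and inversely with that of CTL+dox to CTL (r = -0.52, rho = -0.46). Without TMEM238 and CHCHD10, the members of highest GC content, r was 0.34 and rho 0.32 in the gRNA2 cells and r was -0.38 and rho -0.4 in the CTL cells. Over 10813 eligible genes these were -0.02 and -0.05 in the gRNA2 cells and -0.2 and -0.22 in the CTL cells. The genes share their libraries and are not replicates, so these are descriptions, and the part of GC content or length in the differences was not tested. Ratios were also centred on the medians of eligible genes of alike GC content and length. With ratios so centred, 16 members were again at least 1.5 times lower and the median log2 ratio was -0.344. Over the eligible genes GC content hardly went with the gRNA2 ratio. Such centring therefore cannot remove a relation within the members and does not decide its part.

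**Figure D5:**
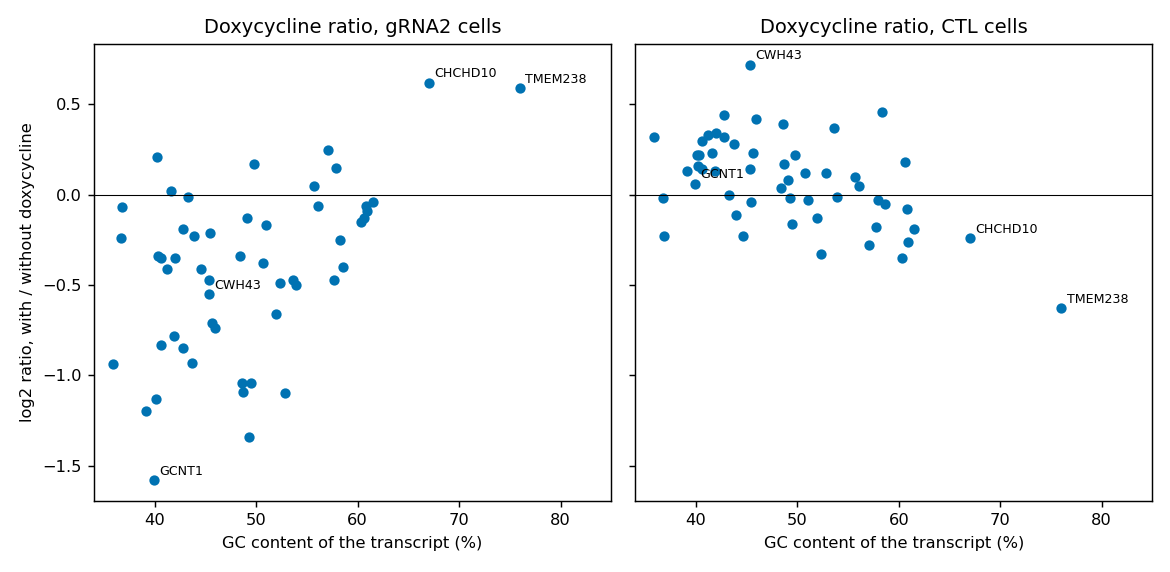
GC content of the canonical transcript (horizontal axis, percent) against the log2 ratio with and without doxycycline in the gRNA2 cells (left) and the CTL cells (right), 1 point for each of 53 members. TMEM238 and CHCHD10, at the highest GC content, lie above 0 on the left and below 0 on the right.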

How the data were processed

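Total RNA of MDA-MB-468 mammospheres was sequenced in 4 conditions with 1 library each. By the methods and the submitters' processing notes, the authors trimmed adaptors with fastp, mapped reads with STAR to hg38 and deposited read counts per gene symbol, which are not normalized. The versions of fastp and STAR and the gene annotation are not given in the sources used here. The unstranded counts were used, and lines for unassigned reads were left out, so that genes held 79.7% to 81% of the reads.

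From the counts, levels were computed as CPM, log2 ratios after adding 0.5 reads in proportion to library size, and exact 95% Clopper-Pearson intervals with Python 3.11.15 and scipy 1.17.1. Intervals and the floor of 3 counts cover counting error only. With 1 library per condition the spread between cultures is unknown, so nothing was tested across samples. The script was tested on simulated data. The members and lists were chosen with earlier results of these data known. Named genes were the 12 members with the largest ratio between the pools, the 8 with the highest mean CTL level, the 8 with the lowest upper end and the 5 with the highest lower end of the interval of the gRNA2+dox to gRNA2 ratio, members of the lists, and TCOF1, KIT, FZD8 and NOS2. Role groups were set after the members were seen. Other genes (PLAT, GJB2, CWH43, CDK15, the members given only by their ratios and those named by chromosome, overlap or threshold) were named after their values were seen. Names and positions are from RefSeq (GRCh38.p14) and lengths and GC content from GENCODE canonical transcripts (GRCh37). Alternatives used edgeR 4.0.16 TMM factors, DESeq2 1.42.0 size factors, thinning, other limits of the rule, a prior count of 5 and centring by GC content and length.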

Additional observations from a re-analysis of the deposited data

Results flagged for a closer look

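In 6 members the counting interval of the doxycycline log2 ratio lay wholly below 0 in the gRNA2 cells and wholly above 0 in the CTL cells, which held for 2.49% of the eligible genes. The difference between the pools was not tested, since each condition has 1 library. The difference of the log2 ratios, gRNA2 cells minus CTL cells, was -1.29 for CDK15, -1.21 for LDHB, -0.84 for S100A2, -0.74 for CLDN10, -0.7 for LGALS1 and -0.21 for A2ML1. CDK15, a little-studied cyclin-dependent kinase, had 83 reads in CTL against 127 in CTL+dox, and 67 in gRNA2 against 31 in gRNA2+dox. It met the read minimum in CTL+dox only, so its choice favoured a higher level there. LGALS1, which encodes galectin-1, had 686, 1059, 396 and 281 reads in the same order.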

How the results depend on the processing

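No paired analysis was possible because there was only 1 library per condition, so that leaving a library out was not run either. With TMM factors 49 genes were members and with DESeq2 size factors 50, all of them among the 54, and after thinning to the total of the smallest library 49 were, of which 44 were shared. The median log2 ratio of gRNA2+dox to gRNA2 stayed negative in each alternative. A rule fold of 2 gave 16 members with a median of -0.687, 9 at least 1.5 times lower and 1 higher with doxycycline in the gRNA2 cells, and a median difference of the doxycycline log2 ratios, gRNA2 cells minus CTL cells, of -0.877. A rule fold of 1.3 gave 132 members with a weaker median of -0.2, 20 at least 1.5 times lower and a difference of -0.244. A minimum of 50 reads gave 96 members with 29 lower, and a minimum of 200 reads gave 32 with 6 lower, beside 1.61% and 0.335% of the genes eligible at these minimums. The number at least 1.5 times higher became 1 with thinning and 1 with centring by GC content and length, an alternative chosen after seeing the data. The numbers of members follow from the limits themselves, and the cause of the other changes was not tested. All 32 named members stayed within their counting interval under TMM, DESeq2 size factors, thinning and a prior count of 5, but near 0 the sign could turn, as for WFDC2, from -0.15 to 0.13 with thinning, and MMP7, from -0.01 to 0.01 with DESeq2 size factors. Spread between cultures was not measured and limits every value.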
